A study of Homo sapiens with 17 samples.

Results

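The 10 piRNA pathway genes examined here were TDRD1, TDRD5, TDRD9, TDRD12, PIWIL1, PIWIL2, PIWIL4, MAEL, ASZ1 and DDX4, taken by symbol from a count table of 63187 genes with no filter on low counts. Of these 10, 9 had at least 1 count in some library, and 4 of them (TDRD9, TDRD12, PIWIL2 and PIWIL4) carried 7 of the 58372 open-chromatin peaks with deposited counts. They were followed in HepG2, a human hepatocellular carcinoma line that is unmodified per the labels. Cells were kept for 4 days, with the medium replaced every day, in 0, 2 or 10 µM 5-azacytidine, a cytidine analog that traps DNA methyltransferases once it is built into DNA; the labels do not say whether untreated cells received a vehicle. RNA-seq had 3 libraries at each dose and ATAC-seq, which counts transposase cuts in accessible DNA, had 3 libraries at 0 and 2 µM and 2 at 10 µM. The submitters call the libraries biological replicates without saying what was separate, so p-values measure the spread between these libraries, which may be technical.

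piRNAs are short RNAs that guide PIWI proteins to transposon transcripts in the germ line, where the targets are cut in the cytoplasm or silenced by DNA methylation in the nucleus. The PIWI proteins (here PIWIL1, PIWIL2 and PIWIL4) are held together with Tudor-domain scaffolds and RNA helicases in granules beside mitochondria, and most of what is known of their roles comes from the mouse testis. In somatic tissue the pathway is largely silent, and several of its genes have start sites rich in CpG that are methylated there and become active when that methylation is lost. DNA methylation itself was not measured in these samples.

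RNA libraries held 35553052 to 46430168 counts in genes and ATAC libraries 2896671 to 7864321 counts in peaks. Levels are given as CPM (counts per 1000000 counts of the library), after scaling with trimmed means (TMM), and levels of different genes are not compared, since CPM is not corrected for gene length. A gene or peak was called where the adjusted p of edgeR's quasi-likelihood test over all features was under 0.05. Replicate 3 at 0 µM stood somewhat apart, correlating at 0.988 and 0.989 (log2 CPM) with the other untreated libraries, which correlated at 0.996 with each other. At 2 µM the gap was smaller, with replicate 3 at 0.993 and 0.992 and the other libraries at 0.995. Replicate 3 at 2 µM correlated at 0.991 with every untreated library, replicate 3 among them. Replicate 3 at 0 µM correlated at 0.983 with the other libraries at 2 µM. All 10 hepatocyte markers checked had counts at every dose. At 2 µM against 0 µM 4 of them fell, where 1.93% of all genes tested fell. At 10 µM against 0 µM all 10 fell, where 14.1% of all genes did. The summed level of the 10 markers was about 33800 to 58640 CPM at 0 µM, 18440 to 31400 CPM at 2 µM and 1354 to 2190 CPM at 10 µM. PTPRC, the defining marker of leukocytes, had no count in any library.

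The start sites are shown first, since the DNA methyltransferases that the drug is known to trap methylate the C of CpG. RefSeq promoter windows of 300 bases (250 before the start and 50 after it, GRCh38.p14) were found for 8 of the 10 genes, TDRD1, TDRD5 and MAEL having 2 each, and none for PIWIL2 and PIWIL4. The 250 bases before the start are printed 5′ to 3′ on the gene's strand with every CpG in capitals, first for the 4 genes whose RNA rose and then for 2 CpG-rich genes, PIWIL1 and ASZ1, that had 2 counts or none. Among windows not printed are the second of TDRD5, a gene that also had 2 counts, with 31 CpG, and the first of MAEL, with 60. The positions are chr14:103928206-103928455 (plus strand) for TDRD9, chr19:32719517-32719766 (plus) for TDRD12, chr10:114179103-114179352 (plus) for the second TDRD1 window, chr1:166989030-166989279 (plus) for the second MAEL window, chr12:130337637-130337886 (plus) for PIWIL1 and chr7:117427494-117427743 (minus) for ASZ1.
TDRD9: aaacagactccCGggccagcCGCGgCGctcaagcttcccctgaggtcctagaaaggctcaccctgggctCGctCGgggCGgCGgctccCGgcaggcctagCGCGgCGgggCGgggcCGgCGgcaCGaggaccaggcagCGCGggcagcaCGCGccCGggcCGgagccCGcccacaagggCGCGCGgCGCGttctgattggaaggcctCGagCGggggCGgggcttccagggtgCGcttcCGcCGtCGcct
TDRD12: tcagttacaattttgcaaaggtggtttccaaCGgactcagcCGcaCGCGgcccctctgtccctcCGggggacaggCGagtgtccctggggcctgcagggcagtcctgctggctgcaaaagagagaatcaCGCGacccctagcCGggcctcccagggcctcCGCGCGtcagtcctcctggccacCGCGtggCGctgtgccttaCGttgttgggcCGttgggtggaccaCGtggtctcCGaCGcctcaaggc
TDRD1: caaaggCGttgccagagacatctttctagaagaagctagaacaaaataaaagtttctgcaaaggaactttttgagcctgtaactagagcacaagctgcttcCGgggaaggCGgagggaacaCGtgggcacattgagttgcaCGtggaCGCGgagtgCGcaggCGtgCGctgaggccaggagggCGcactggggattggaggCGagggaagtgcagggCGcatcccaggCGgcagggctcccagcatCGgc
MAEL: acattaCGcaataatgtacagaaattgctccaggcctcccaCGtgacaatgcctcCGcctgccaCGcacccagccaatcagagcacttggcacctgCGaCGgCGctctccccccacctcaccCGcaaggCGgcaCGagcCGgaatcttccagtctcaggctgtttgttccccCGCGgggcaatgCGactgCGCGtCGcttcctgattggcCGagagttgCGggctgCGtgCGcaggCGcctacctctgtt
PIWIL1: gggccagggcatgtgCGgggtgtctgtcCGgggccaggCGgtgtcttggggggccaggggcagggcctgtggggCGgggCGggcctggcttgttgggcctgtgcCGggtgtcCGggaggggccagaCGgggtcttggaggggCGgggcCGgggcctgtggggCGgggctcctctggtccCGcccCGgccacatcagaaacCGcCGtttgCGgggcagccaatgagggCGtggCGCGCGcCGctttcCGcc
ASZ1: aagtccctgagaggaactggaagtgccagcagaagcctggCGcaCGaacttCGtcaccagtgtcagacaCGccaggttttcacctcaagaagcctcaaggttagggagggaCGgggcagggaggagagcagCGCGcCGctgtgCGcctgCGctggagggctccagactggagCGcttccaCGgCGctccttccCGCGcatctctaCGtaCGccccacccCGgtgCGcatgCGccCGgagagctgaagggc

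Over all 35116 RefSeq windows the median was 14 CpG per 300 bases. The TDRD9 window held 41 CpG, and 94.2% of windows held as many or fewer. The first MAEL window held 60, and 99.9% of windows held as many or fewer. This MAEL window lies 13698 bp upstream of the second and under a peak assigned to the neighbouring gene ILDR2. TDRD12 held 26, TDRD1 17 and 21, and the second MAEL window 27. Of the genes with 2 counts or none in all libraries, PIWIL1 held 30, ASZ1 29 and TDRD5 13 and 31. The CpG counts of the genes whose RNA rose and of the others thus overlapped. The start site of the DDX4 window, with 1 CpG, lies 28824 bp inside the RefSeq gene.

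**Figure D1:**
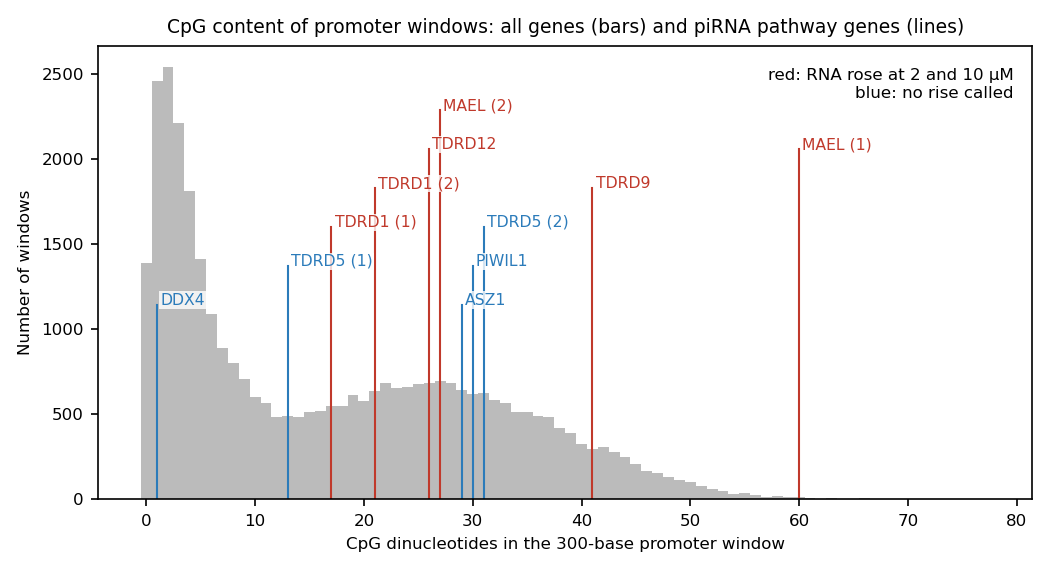
Number of CpG dinucleotides (x axis) in 300-base promoter windows; bars count all 35116 windows (y axis) and each line marks a window of a piRNA pathway gene, with the window number in brackets where there are 2; line heights only separate the names. Red lines, genes whose RNA rose at 2 and 10 µM, run from 17 to 60 CpG, and blue lines, genes with no called rise, from 1 to 31.

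Short motifs of 3 transcription factor families were searched in the same windows. TCCCGC, part of the site of E2F factors (both strands), was in the windows of TDRD9, TDRD12, PIWIL1 and ASZ1 and in both MAEL windows, and in 26.9% of all windows. CACGTG, the palindromic E-box bound by MYC, MAX and related factors, was in 7.3% of all windows. It occurred in both TDRD1 windows, 2 times in each, and once in the TDRD12 window, the second MAEL window and the second TDRD5 window. AACGG or AACTG, cores of MYB sites (both strands), were in the windows of TDRD9, TDRD12, PIWIL1 and ASZ1, and in 52.4% of all windows. These are matches of letters only.

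At 2 µM against 0 µM, 4 of the 10 genes rose (TDRD9, TDRD12, TDRD1 and MAEL) and 0 fell, where 2.96% of the 34824 genes tested rose and 1.93% fell. At 10 µM against 0 µM the same 4 rose and PIWIL2 fell, where 13.1% of all genes rose and 14.1% fell. At 10 µM against 2 µM none rose and 2 fell (TDRD12 and PIWIL2), where 9.37% of all genes rose and 12.3% fell. Where these counts are 0, edgeR's unadjusted p was under 0.05 for 0 genes in that direction, and DESeq2 called 0. The median log2 change of the 9 genes with counts was 5.40 at 2 µM against 0 µM, or 2.21 with genes absent from untreated cells set at their lower bound and PIWIL1 and TDRD5, at or under 3 counts per dose, at 0; the median over all genes was 0. At 10 µM against 0 µM these medians were 4.13, 1.53 and 0, and at 10 µM against 2 µM the genes' median was -0.61 and that of all genes 0. Both medians of the genes at 2 µM against 0 µM were the value of DDX4, and the 1.53 that of PIWIL4, and neither gene was called. The comparisons of 2 and of 10 µM with 0 µM share the untreated libraries. Scaling by total counts in place of TMM changed no call among the 10 genes, but moved the split over all genes from 1030 higher and 673 lower to 1340 and 391 at 2 µM against 0 µM, and from 4574 and 4908 to 5983 and 3927 at 10 µM against 0 µM, where the median over all genes was then 0.18. Only 5 of the 10 genes (TDRD9, TDRD12, TDRD1, MAEL and PIWIL2) would pass a usual filter on low counts, and adjusted p-values after that filter, which left 18999 genes, are given beside those of the unfiltered test.

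**Figure D2:**
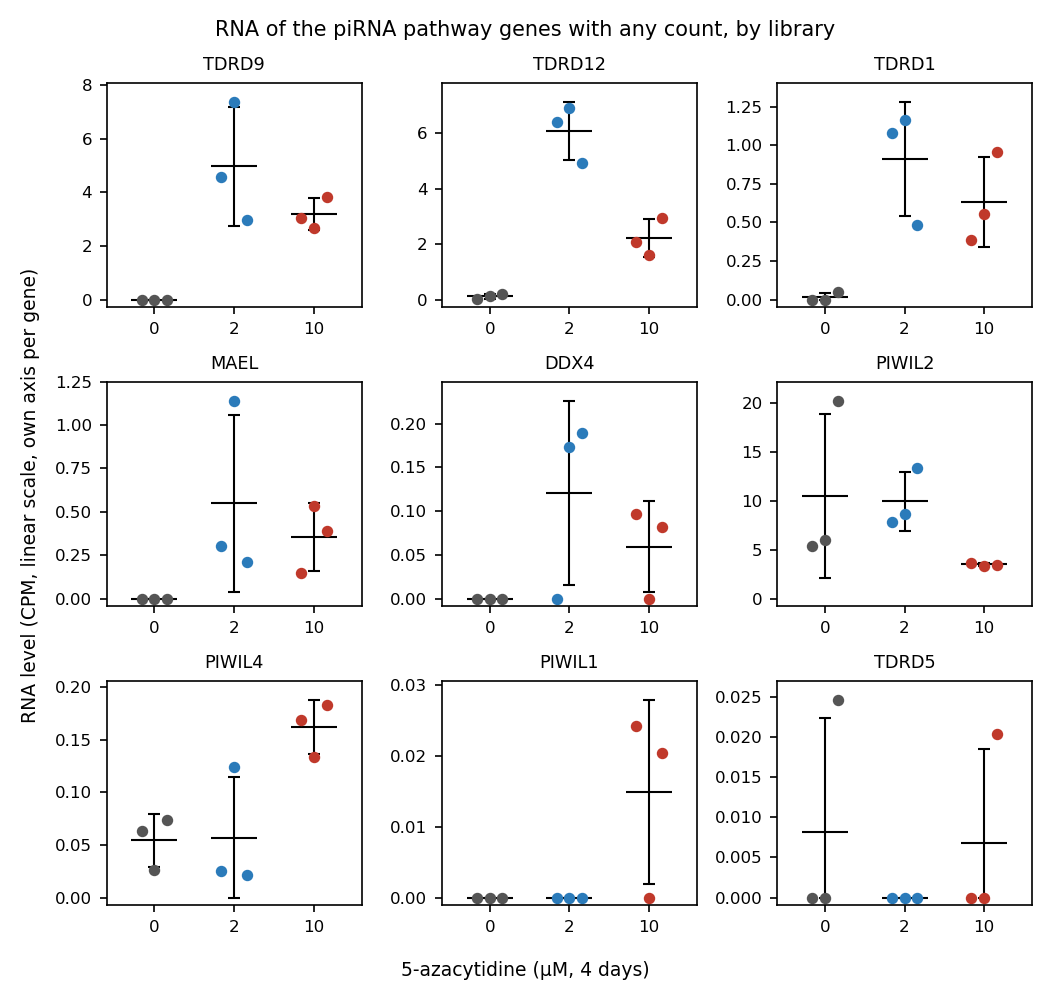
RNA level in CPM (y axis, linear, a separate scale for each gene) at 0, 2 and 10 µM 5-azacytidine (x axis) for the 9 genes with any count; each point is 1 library, the wide bar is the mean of 3 libraries and the error bar the SD, cut off at 0. TDRD9, TDRD12, TDRD1 and MAEL are at or near 0 without drug and above it in every treated library, while PIWIL2 is lowest at 10 µM.

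TDRD9, a DExH-box helicase that partners the nuclear PIWI protein in the mouse (ENSG00000156414.20, chr14:103928456-104052667, hg38), had no count without drug. Its level was 0 in all 3 untreated libraries, 4.58, 7.37 and 2.97 CPM at 2 µM, then 3.04, 2.68 and 3.85 CPM at 10 µM. Every treated library thus lay above every untreated one, while the 2 doses overlapped. In RNA from whole cultures, a few cells with much TDRD9 and many cells with little cannot be told apart. Set against 3 counts over the untreated group, TDRD9 was at least 179.8-fold higher at 2 µM than at 0 µM (edgeR adjusted p = 1e-33, or 7.35e-05 after the count filter). At 10 µM it was at least 117.8-fold higher than at 0 µM (edgeR adjusted p = 3.95e-30, or 3.66e-06 filtered). Such bounds, here and below, take the treated counts as exact and leave out the spread between treated libraries. Between 10 and 2 µM the log2 difference of -0.64 (SE 0.39) did not pass (edgeR adjusted p = 0.269), but it did, at -0.91, with replicates 3 of 0 and 2 µM left out (adjusted p = 0.0306). RD3L lies within TDRD9, and the kit was stranded but the strand setting of the counting is not given, so reads of the 2 genes may not be fully told apart.

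TDRD12, a Tudor protein with a helicase domain needed for secondary piRNA production in the mouse (ENSG00000173809.18, chr19:32719767-32829580), had a trace without drug. Its level was 0.0314, 0.13 and 0.197 CPM at 0 µM, 6.41, 6.93 and 4.92 CPM at 2 µM, then 2.08, 1.63 and 2.95 CPM at 10 µM. The 3 doses did not overlap, and the highest level was at 2 µM. The log2 change at 2 µM against 0 µM was 5.58 (SE 0.51; edgeR adjusted p = 1.71e-24, or 7.35e-05 filtered) and at 10 µM against 0 µM it was 4.13 (SE 0.50; adjusted p = 5.16e-15, or 2.10e-05 filtered). At 10 µM TDRD12 averaged 2.22 ± 0.675 CPM, against 6.09 ± 1.04 CPM at 2 µM (SD, n = 3 each), a log2 difference of -1.45 (SE 0.39; edgeR adjusted p = 0.00161, or 0.00849 filtered).

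DDX4, the germ-cell RNA helicase also called VASA (ENSG00000152670.19, chr5:55738061-55817157), was seen in some treated libraries only. It had no count in the untreated libraries, 0, 7 and 9 counts at 2 µM, then 4, 0 and 4 counts at 10 µM. A treated library without a count at each dose overlapped the untreated group. At 2 µM DDX4 was at least 4.63-fold higher than at 0 µM, but the change did not pass (edgeR adjusted p = 0.120). At 10 µM the level was 2.07-fold higher by the same measure, and this change did not pass either (edgeR adjusted p = 0.108).

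TDRD1, a Tudor scaffold that binds the methylated arginines of PIWI proteins in mouse germ cells (ENSG00000095627.10, chr10:114174874-114232666), had 0, 0 and 2 counts in the untreated libraries. At 2 µM it had 43, 47 and 23 counts (1.08, 1.16 and 0.484 CPM), and at 10 µM 16, 29 and 47 counts (0.387, 0.555 and 0.957 CPM). Treated and untreated libraries did not overlap, and the 2 doses did. Counts of TDRD1 were summed over each dose and divided by the summed library sizes after TMM scaling. The ratio of these values at 2 µM to 0 µM was 49.0 (95% exact interval of the counts 13.3 to 409.5, edgeR adjusted p = 8.38e-08, or 0.00480 filtered). At 10 µM to 0 µM the ratio was 35.7 (9.61 to 299.4, edgeR adjusted p = 3.04e-07, or 0.000623 filtered). Both untreated counts came from replicate 3; without it TDRD1 was at least 20.7-fold higher at 2 µM (adjusted p = 7.24e-08) and at least 15.1-fold higher at 10 µM (adjusted p = 1.74e-07). TDRD5, a Tudor protein of later mouse piRNA production (ENSG00000162782.16, chr1:179591613-179691272), had 2 counts in all, 1 in an untreated library and 1 at 10 µM.

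MAEL encodes maelstrom, which acts in transposon repression in flies and mice (ENSG00000143194.13, chr1:166975582-167022214). It had no count in the untreated libraries, 12, 46 and 10 counts at 2 µM (0.301, 1.14 and 0.210 CPM), then 6, 28 and 19 counts at 10 µM (0.145, 0.536 and 0.387 CPM). Every treated library held MAEL counts, with replicate 2 highest at 2 µM. MAEL was at least 19.7-fold higher at 2 µM than at 0 µM (edgeR adjusted p = 2.18e-06, or 0.0178 filtered), or at least 9.30-fold without replicate 2 at 2 µM (adjusted p = 0.00337). At 10 µM it was at least 13.7-fold higher than at 0 µM (edgeR adjusted p = 4.67e-06, or 0.00320 filtered). ASZ1, a scaffold on the mitochondrial surface of mouse germ cells (ENSG00000154438.8, chr7:117363222-117427493), had 0 counts in all 9 libraries. The 3 libraries of a dose allow at most 0.0271 CPM of ASZ1 at 0 µM, 0.0235 CPM of it at 2 µM and 0.0210 CPM of it at 10 µM (3 counts, counting error only).

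None of the 3 PIWI genes passed the test as higher at either dose. PIWIL2, which loads piRNAs in the cytoplasm in the mouse (ENSG00000197181.12, chr8:22275316-22357568), was present without drug, at 5.35, 5.95 and 20.2 CPM. It had 7.82, 8.66 and 13.4 CPM at 2 µM and 3.67, 3.35 and 3.48 CPM at 10 µM. Replicate 3 was the highest library both at 0 and at 2 µM, and the libraries at 10 µM lay below all the others. The log2 change of PIWIL2 was -1.59 at 10 µM against 0 µM (SE 0.31; edgeR adjusted p = 4.3e-06, or 0.0105 filtered) and -1.51 at 10 µM against 2 µM (SE 0.31; adjusted p = 1.90e-05, or 0.0192 filtered). Without replicate 3 at 0 µM the first of these was -0.69 and did not pass (adjusted p = 0.0875). At 2 µM against 0 µM the log2 change was -0.08 (SE 0.30; edgeR adjusted p = 1).

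PIWIL4, the PIWI protein that acts in the nucleus in the mouse (ENSG00000134627.12, chr11:94567368-94621421), stayed under 10 counts in every library. It had 2, 1 and 3 counts at 0 µM, 1, 5 and 1 counts at 2 µM, then 7, 7 and 9 counts at 10 µM. The libraries at 10 µM lay above all the others in CPM, but the log2 difference at 10 µM against 0 µM, 1.53 (SE 1.24), did not pass (edgeR adjusted p = 0.410). The antisense gene PIWIL4-AS1 spans PIWIL4. PIWIL1, the PIWI protein of late spermatogenesis in the mouse (ENSG00000125207.7, chr12:130337887-130426260), had 2 counts in all, both at 10 µM.

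Patterns across the 9 libraries were compared for the 3 genes that reached a mean of 1 CPM at some dose, by Pearson's r of log2(CPM + 0.1) against 14782 genes, as a description. The genes most like TDRD9 were ATL3 (0.996), PRKX (0.985) and SNX19 (0.983). ATL3, whose product shapes the endoplasmic reticulum, also had 0 CPM without drug, and averaged 11.96 CPM at 2 µM and 6.47 CPM at 10 µM. Those most like TDRD12 were ENSG00000235726 (0.985), RCN1 (0.984) and PRKAR1B-AS1 (0.975), and those most like PIWIL2 were C2orf16 (0.979), SLC1A7 (0.976) and FILIP1L (0.973). The 9 libraries come from 3 doses, so these points are not independent.

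Of 24 other genes of the pathway, 21 had counts. At 2 µM against 0 µM 5 rose (SPOCD1, BTBD18, PNLDC1, TEX15 and STK31) and 0 fell by edgeR or DESeq2 (1 at an unadjusted p under 0.05), where 2.96% of all genes rose and 1.93% fell. Those 5 and TDRD6 rose at 10 µM against 0 µM and MYBL1 fell, where 13.1% of all genes rose and 14.1% fell. At 10 µM against 2 µM 3 rose (SPOCD1, PLD6 and TDRD3) and 4 fell (BTBD18, PNLDC1, TDRD15 and MYBL1), where 9.37% of all genes rose and 12.3% fell. The median log2 changes of the 21 were 0.46, 0.80 and -0.18 in these 3 comparisons, where that of all genes was 0. The TDRD6 call was lost on leaving out any 1 of the 6 libraries compared (edgeR adjusted p from 0.0680 to 0.0967), and it was also lost under the replicate block (0.0800). The TDRD3 call was lost on leaving out any 1 of 5 of the 6 libraries compared (edgeR adjusted p from 0.0726 to 0.141). Some calls were gained under alternatives, of which these are examples. TDRD15 passed at 2 µM against 0 µM with the replicate block (edgeR adjusted p = 0.0276). Without replicate 3 at 0 µM TDRD15 (log2 1.36, adjusted p = 0.0285) and PLD6 (log2 -1.14, adjusted p = 0.000193) passed in that comparison. At 10 µM against 2 µM TEX15 passed with the replicate block (edgeR adjusted p = 0.0102) but not with DESeq2 (0.249). TDRKH passed there with DESeq2 (adjusted p = 0.0209) and after the count filter (edgeR, 0.0286), but not with the replicate block (edgeR, 0.0710). PIWIL3, RNF17 and MORC1 had no count in any library.

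SPOCD1 and TEX15, which link the nuclear PIWI protein to DNA methylation in the mouse, rose at both doses. SPOCD1 had 0.346, 0.416 and 0.394 CPM at 0 µM, 6.99, 4.78 and 1.94 CPM at 2 µM, then 16.2, 16.4 and 15.5 CPM at 10 µM, with no overlap between doses. Its log2 change was 3.55 at 2 µM against 0 µM (SE 0.38; edgeR adjusted p = 3.98e-18, or 0.000732 filtered). At 10 µM against 0 µM it was 5.37 (SE 0.40; edgeR adjusted p = 1.13e-39, or 1.59e-06 filtered). At 10 µM against 2 µM it was 1.82 (SE 0.32; edgeR adjusted p = 3.26e-07, or 0.00188 filtered). TEX15 had 2.39, 3.17 and 1.28 CPM at 0 µM, 11.4, 17.6 and 3.45 CPM at 2 µM, then 14.0, 21.8 and 14.4 CPM at 10 µM. The log2 change of TEX15 was 2.25 at 2 µM against 0 µM (SE 0.31; edgeR adjusted p = 1.21e-10, or 0.0228 filtered). At 10 µM against 0 µM it was 2.88 (SE 0.32; edgeR adjusted p = 3.92e-18, or 0.000444 filtered). Replicate 3 was the lowest library at 2 µM for both genes.

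BTBD18 and PNLDC1 were highest at 2 µM, as TDRD12 was. BTBD18, which promotes elongation over pachytene piRNA loci in the mouse, had no count at 0 µM, 1.73, 1.98 and 2.10 CPM at 2 µM, then 0.0483, 0.0765 and 0.469 CPM at 10 µM, where 2, 4 and 23 counts were found. It was at least 72.0-fold higher at 2 µM than at 0 µM (edgeR adjusted p = 1.50e-15, or 0.0031 filtered). At 10 µM it was at least 7.51-fold higher than at 0 µM (edgeR adjusted p = 1.81e-05, or 0.0071 filtered). Without replicate 3 at 10 µM this was at least 2.37-fold (edgeR adjusted p = 0.0194). At 10 µM it lay below 2 µM by a log2 difference of -3.26 (SE 0.60; edgeR adjusted p = 9.32e-07, or 0.0044 filtered), or -4.87 without that replicate. PNLDC1, the exonuclease that trims the 3′ ends of piRNAs, averaged 1.89 ± 0.806 CPM at 2 µM, against 0.0342 ± 0.0399 CPM at 0 µM (SD, n = 3 each). The log2 change was 5.61 (SE 0.74; edgeR adjusted p = 1.21e-11, or 0.0052 filtered), or 6.82 without replicate 2 at 0 µM. At 10 µM PNLDC1 averaged 0.347 ± 0.283 CPM, with 1 library within the untreated range. Its log2 difference to 2 µM was -2.41 (SE 0.56; edgeR adjusted p = 0.000180, or 0.0159 filtered), or -3.07 without replicate 3 at 10 µM.

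STK31, a germ-cell protein with a Tudor domain, had no count at 0 µM, 14, 26 and 7 counts at 2 µM, then 8, 11 and 24 counts at 10 µM. It was at least 11.1-fold higher at 10 µM than at 0 µM (edgeR adjusted p = 5.01e-05, or 0.00257 filtered). At 2 µM it was at least 13.6-fold higher than at 0 µM (edgeR adjusted p = 0.000105, or 0.0186 filtered), or at least 8.88-fold without replicate 2 at 2 µM. TDRD15, a Tudor-domain gene, averaged 1.16 ± 0.539 CPM at 10 µM, against 3.86 ± 1.58 CPM at 2 µM (SD, n = 3 each). The log2 difference was -1.72 (SE 0.42; edgeR adjusted p = 0.000347, or 0.0197 filtered). MYBL1, a transcription factor of pachytene piRNA loci in the mouse, was named after its values were seen. It averaged 4.00 ± 0.876 CPM at 10 µM, against 10.6 ± 3.17 CPM at 0 µM (SD, n = 3 each). The log2 change was -1.40 (SE 0.31; edgeR adjusted p = 5.88e-05, or 0.00126 filtered).

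**Figure D3:**
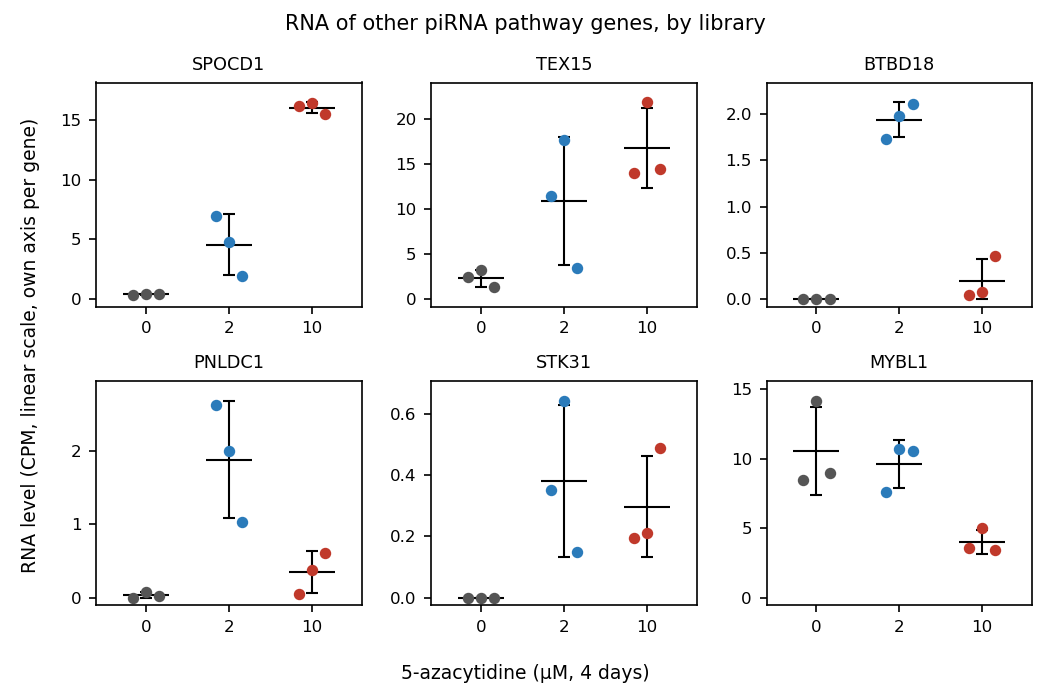
RNA level in CPM (y axis, linear, a separate scale for each gene) at 0, 2 and 10 µM 5-azacytidine (x axis) for 6 other genes of the pathway; each point is 1 library, the wide bar the mean of 3 and the error bar the SD, cut off at 0. SPOCD1 and TEX15 average most at 10 µM, BTBD18 and PNLDC1 at 2 µM, and MYBL1 is lowest at 10 µM.

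The 4 Argonaute genes of somatic small-RNA silencing, AGO1 to AGO4, gave no call at 2 µM against 0 µM by edgeR or DESeq2, and edgeR's unadjusted p was under 0.05 for 0 of them. Of all genes 2.96% rose and 1.93% fell in that comparison. Without replicate 3 at 0 µM, AGO2 passed at 2 µM against 0 µM (log2 0.75, edgeR adjusted p = 0.00984), and AGO3 (log2 0.74, adjusted p = 0.00475) and AGO4 (log2 1.00, adjusted p = 0.000112) passed at 10 µM against 0 µM. AGO2, the Argonaute with slicing activity in somatic cells, averaged 297.8 ± 29.4 CPM at 10 µM, against 130.2 ± 79.2 CPM at 0 µM (SD, n = 3 each). The log2 change was 1.19 (SE 0.23; edgeR adjusted p = 1.69e-06, or 0.014 filtered), or 1.82 without replicate 3 at 0 µM. With all libraries AGO2 was the only 1 of the 4 called at 10 µM against 0 µM, where 13.1% of all genes rose. AGO2 and AGO3 rose at 10 µM against 2 µM, where 9.37% of all genes rose. The AGO3 call was lost without replicate 1 at 2 µM (edgeR adjusted p = 0.0595).

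Markers of male germ cells were checked in the same libraries. Of 13 listed, 8 had a count in some library and were tested. SYCP3, a protein of meiotic chromosome axes, rose at 2 and at 10 µM against 0 µM, where 2.96% and 13.1% of all genes rose. SYCP3 and STRA8 fell at 10 µM against 2 µM, where 12.3% of all genes fell. The summed level of the 13 was 0.157 to 0.739 CPM at 0 µM, 2.15 to 3.117 CPM at 2 µM and 0.612 to 1.43 CPM at 10 µM. At these doses 8, 7 and 8 of the 13 had no count, among them SYCP1, UTF1, NANOS2, TNP1 and TNP2 at every dose. The part of these markers, or of the hepatocyte markers, in the changes of the piRNA pathway genes was not tested.

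Of the 7 peaks on these genes, 2 rose and 0 fell at 2 µM against 0 µM (1 and 0 by DESeq2, and 0 lower at edgeR's unadjusted p under 0.05), where 15.5% of all 58372 peaks rose and 7.3% fell. At 10 µM against 0 µM 5 rose and 2 fell, where 29.9% rose and 27.6% fell, and at 10 µM against 2 µM the counts were again 5 and 2, where 27.5% rose and 27.6% fell. The median log2 changes of the 7 were 0.37, 1.04 and 0.54 in these comparisons, and those of all peaks 0.02, 0.05 and 0.06. No deposited peak covered the start of a RefSeq window of TDRD9, TDRD12 or TDRD1, and TDRD1, MAEL, TDRD5, PIWIL1, ASZ1 and DDX4 had no peak that the authors' annotation assigned to them. Peak positions and gene assignments are the authors', on hg38.

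**Figure D4:**
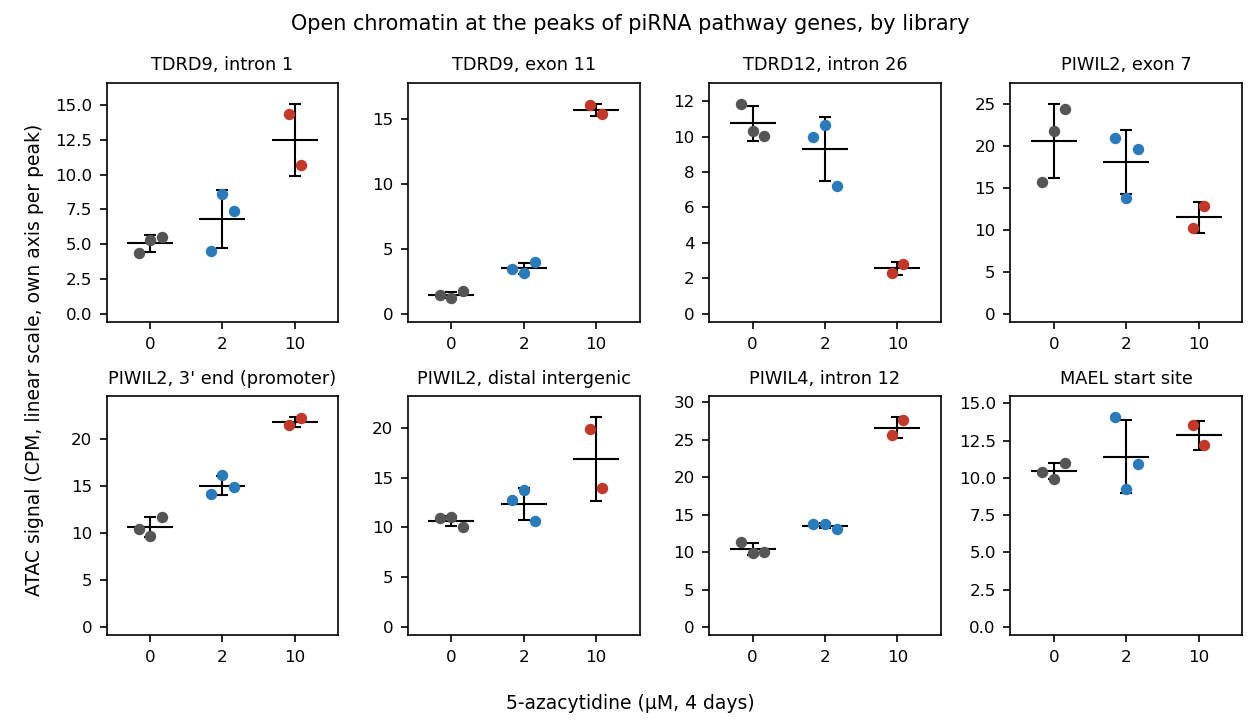
ATAC signal in CPM (y axis, linear, a separate scale for each peak) at 0, 2 and 10 µM 5-azacytidine (x axis) for the 7 peaks assigned to piRNA pathway genes and for the peak over the upstream MAEL start, which the authors assigned to ILDR2; each point is 1 library, the wide bar the mean and the error bar the SD. The TDRD9 exon 11 and PIWIL4 intron 12 peaks are highest in both libraries at 10 µM, and the TDRD12 intron 26 peak is lowest there.

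TDRD9 had 2 peaks, and both opened with the higher dose. The peak in exon 11 (chr14:103994462-103994962, 66256 bp from the start) had 1.46, 1.22 and 1.70 CPM at 0 µM, 3.44, 3.09 and 3.96 CPM at 2 µM, then 16.1 and 15.4 CPM at 10 µM. The 3 doses did not overlap. Its log2 change was 3.44 at 10 µM against 0 µM (SE 0.28; edgeR adjusted p = 4.80e-12) and 2.12 at 10 µM against 2 µM (SE 0.26; adjusted p = 3.02e-08). At 2 µM against 0 µM it was 1.32 (SE 0.35; adjusted p = 0.00652), but this did not pass without replicate 2 at 0 µM (0.0555) or replicate 3 at 2 µM (0.0686).

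The other TDRD9 peak, in intron 1 (chr14:103933551-103934051, 5345 bp from the start), had 4.37, 5.30 and 5.49 CPM at 0 µM, 4.47, 8.60 and 7.37 CPM at 2 µM, then 14.4 and 10.7 CPM at 10 µM. Libraries at 10 µM lay above all others, and those at 2 µM overlapped the untreated ones. The log2 change was 1.31 at 10 µM against 0 µM (SE 0.25; edgeR adjusted p = 2.73e-05) and 0.87 at 10 µM against 2 µM (SE 0.25; adjusted p = 0.00353), the second not passing without replicate 1 at 10 µM (0.0992). TDRD9 RNA, by contrast, was no higher on average at 10 µM than at 2 µM (3.19 ± 0.599 against 4.97 ± 2.23 CPM, SD, n = 3 each).

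The TDRD12 peak, in intron 26 near the far end of the gene (chr19:32817540-32818040, 98023 bp from the start), closed where its RNA was above the untreated level. It had 11.9, 10.3 and 10.0 CPM at 0 µM, 9.97, 10.7 and 7.23 CPM at 2 µM, then 2.28 and 2.83 CPM at 10 µM. Both libraries at 10 µM lay below all others. The log2 change was -2.08 at 10 µM against 0 µM (SE 0.29; edgeR adjusted p = 1.84e-07) and -1.82 at 10 µM against 2 µM (SE 0.31; adjusted p = 7.86e-06).

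PIWIL4, with its few counts of RNA, had a peak in intron 12 (chr11:94602959-94603459) that opened. It had 11.4, 9.93 and 10.0 CPM at 0 µM, 13.8, 13.8 and 13.1 CPM at 2 µM, then 25.6 and 27.6 CPM at 10 µM, with no overlap between doses. The log2 change was 1.35 at 10 µM against 0 µM (SE 0.17; edgeR adjusted p = 3.49e-08) and 0.98 at 10 µM against 2 µM (SE 0.18; adjusted p = 1.71e-05), and at 2 µM against 0 µM it was 0.37 and did not pass (adjusted p = 0.136).

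PIWIL2 had 3 peaks that moved in different directions at 10 µM. The peak in exon 7 (chr8:22287364-22287864) averaged 11.5 ± 1.86 CPM at 10 µM (SD, n = 2), against 20.7 ± 4.44 CPM at 0 µM (SD, n = 3), and fell by 0.88 on the log2 scale (SE 0.21; edgeR adjusted p = 0.000413). The peak at the start of a short transcript near the 3′ end of the gene (chr8:22352704-22353204) averaged 21.8 ± 0.508 CPM at 10 µM (SD, n = 2), against 10.6 ± 1.06 CPM at 0 µM (SD, n = 3), a log2 change of 1.04 (SE 0.18; edgeR adjusted p = 6.20e-06). Its change at 2 µM against 0 µM, 0.51 (SE 0.18; edgeR adjusted p = 0.0383), did not pass with DESeq2 (0.166), with its size factors in edgeR (0.0568), with the replicate block (log2 0.50, adjusted p = 0.0669), or without any 1 of the untreated libraries or replicate 2 or 3 at 2 µM (adjusted p up to 0.226). The peak just beyond the gene (chr8:22358590-22359090) changed by 0.69 at 10 µM against 0 µM (SE 0.20; edgeR adjusted p = 0.00335), and this call was lost without replicate 1 at 10 µM (log2 0.37, adjusted p = 0.239).

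The upstream start of MAEL was covered by a peak assigned to ILDR2 (chr1:166975265-166975765), looked up after the values were seen. It had 10.4, 9.93 and 10.98 CPM at 0 µM, 14.1, 9.28 and 10.9 CPM at 2 µM, then 13.6 and 12.2 CPM at 10 µM. The peak was thus open where MAEL RNA had no count, and its change passed neither at 2 µM against 0 µM (log2 0.12, SE 0.20; edgeR adjusted p = 0.710) nor at 10 µM against 0 µM (log2 0.31, SE 0.21; adjusted p = 0.198). Another pair of peaks, assigned to MIR2110 and CCDC186 and lying 4451 to 5044 bp upstream of the TDRD1 windows, also did not pass at any dose (edgeR adjusted p from 0.246 to 0.889). The fourth such peak, assigned to SLC39A14 and within 5000 bp of PIWIL2, averaged 4.59 ± 0.339 CPM at 10 µM (SD, n = 2), against 19.2 ± 3.01 CPM at 0 µM (SD, n = 3), and fell by 2.04 on the log2 scale (SE 0.26; edgeR adjusted p = 2.32e-08), while its change at 2 µM against 0 µM did not pass (log2 -0.35, adjusted p = 0.204).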

How the data were processed

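RNA-seq and ATAC-seq of HepG2 cells were analysed from the tables the authors deposited. Per the labels' protocols, RNA libraries were made with a stranded total RNA kit and ATAC libraries with a Nextera kit. Per the submitters' processing notes the tools were HISAT2 2.2.1, HTSeq 2.0.4, DESeq2 1.42.1 and DiffBind 3.12.0 on hg38; no source used here gives the strand setting of the counting. The authors deposited raw read counts per gene and per peak, a peak list of 63621 consensus peaks of which 58372 have counts, and a signal table of normalised RNA counts. That deposited signal table was used only as a check. Its columns for replicates 2 and 3 at 10 µM hold each other's counts, so the numbers of those 2 replicates may be swapped. A swap would leave dose means and tests without the replicate block as they are. The replicate block, the pairing correlations at 10 µM and the names of left-out RNA libraries at 10 µM do depend on these numbers.

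Gene identifiers were matched to symbols (62666 of 63187). The members and all gene lists were chosen with earlier results of these data known. Raw counts were tested with edgeR 4.0.16 (TMM, glmQLFit, glmQLFTest) in 1 fit over all libraries of an assay, on every gene with at least 1 count (34824) and every counted peak, with Benjamini-Hochberg adjustment over all of them. SE is the log2 change divided by the root of F. Where a group had no count, a fold change was bounded with 3 counts over that group, the counts of the other group being taken as exact. Intervals of count ratios are exact, at 95%, and cover counting error only. Named were all members and their peaks, up to 4 other pathway genes per RNA comparison by adjusted p, and the 3 genes most like each member that reached 1 CPM. Promoter windows are RefSeq's. Replicate numbers in the labels paired the 0 and 2 µM RNA libraries by the data: deviations from the group means of same-numbered libraries correlated at 0.34 to 0.407 (3 pairs), and those of other pairs at -0.426 to 0.089. The labels give no shared batch. The procedure was tested on simulated data, with less spread between libraries than edgeR estimated for the RNA counts (common dispersion 0.0967). Only features above 1 CPM were changed there, so the simulation did not cover genes with no count in a group. Alternatives were DESeq2 1.42.0, other scalings, a count filter, only the 2 doses compared, the replicate number as a block, and leaving out libraries.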

Additional observations from a re-analysis of the deposited data

How the results depend on the processing

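The 4 genes called higher at 2 and at 10 µM against 0 µM were called under every alternative run. Of 412 recomputed values of single genes 409 kept their side of the threshold, 2 (both PIWIL2) were lost and 1 (TDRD9) gained. 14 of the 412 changed sign (PIWIL2 and PIWIL4 at 2 µM and TDRD5 at 10 µM against 0 µM, and MAEL at 10 µM against 2 µM), 0 of them called in either fit. Of 273 values of single peaks 255 kept their side, 18 were lost and 0 changed sign. PIWIL2, the 1 gene called lower at 10 µM against 0 µM, gave 0 calls with replicates 3 of 0 and 2 µM left out (0 to 1 calls with 1 library left out). At 2 µM against 0 µM, 1703 genes were called in all, 2743 with those replicates left out, 813 after the count filter and 1070 to 2187 with 1 library left out. At 2 µM against 0 µM 13304 peaks were called, 8704 with DESeq2 and 8570 to 16149 with 1 library left out. The 2 member peaks called higher there became 1 with DESeq2, 1 with its size factors in edgeR and 1 with the replicate block, and 0 to 2 with 1 library left out. At 10 µM against 2 µM, the 5 member peaks higher and 2 lower became 3 to 5 and 1 to 2 with 1 library left out, the lowest without replicate 1 at 10 µM, which leaves 1 library there, assumed to vary like the other doses. The cause of these shifts was not tested. With the replicate block, 1942 genes were called at 2 µM against 0 µM, the member gene counts stayed at 4 higher and 0 lower, and no member gene's call changed in any comparison. Same-numbered ATAC libraries did not pair (correlations from -0.217 to 0.124, 7 pairs), nor did RNA libraries at 10 µM with those at 0 or 2 µM (-0.085 to 0.085). The RNA pairing at 10 µM and the RNA replicate block take the numbers of the raw count columns as given. They were not rerun with replicates 2 and 3 at 10 µM exchanged. A minimum of 2 CPM removed no peak and was not run. Depth limits TDRD5, PIWIL1, PIWIL4, ASZ1 and DDX4, which stayed under 10 counts in every library.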
